A study of Homo sapiens with 10 samples.

Results

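The genes described here were 10 regulators of the G1 phase of the cell cycle, namely the D-type cyclins CCND1 and CCND3, the E-type cyclins CCNE1 and CCNE2, the kinases CDK4 and CDK6, the kinase inhibitors CDKN1B, CDKN2C and CDKN2D, and the transcription factor E2F1. They were named as a group and matched by gene symbol, and all 10 were found among the 57820 genes measured. The cells were HCT116, an established human colorectal carcinoma line, in which polyadenylated RNA was sequenced. In the first experiment, 3 libraries came from cells carrying a lentiviral shRNA against TEX10, a protein of a nuclear complex that acts in ribosome assembly (TEX10_sh), and 3 from cells carrying a control shRNA (shNC1). In the second, 2 libraries came from cells carrying an shRNA against RELA, which encodes the p65 subunit of NF-kappaB (p65_sh), and 2 from their own control shRNA cells (shNC2). All 4 groups, controls included, had been exposed to lentivirus for 24 h and then kept in puromycin for 3 days. The labels do not say which shRNA sequence was used, whether 1 or more, or whether replicates were separate infections. Every p-value below therefore rests on the spread between libraries, partly that of other genes, and this spread may be technical.

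Passage through G1 depends on cyclin-dependent kinases. D-type cyclins bind CDK4 and CDK6 and E-type cyclins bind CDK2, and the active kinases phosphorylate the retinoblastoma protein, which releases E2F factors to switch on genes for DNA replication. INK4 inhibitors such as the products of CDKN2C and CDKN2D bind CDK4 and CDK6, and CIP/KIP inhibitors such as p27, the product of CDKN1B, bind cyclin and kinase complexes. Much of this control acts on protein amount and phosphorylation, which were not measured here.

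Promoter sequences were taken from RefSeq (GRCh38.p14) as 250 bases before to 50 bases after each start. Entries matched 8 of the 10 genes, in 13 promoters, and CCND1 and CCNE2 had none. The promoters of 2 genes are shown because 1 belongs to the only E2F factor of the group and holds E2F motifs itself, and the other belongs to CDK4, a kinase gene whose level was higher after both knockdowns. The E2F1 promoter lies at chr20:33686336-33686635 on the minus strand, and capitals mark the E2F motif.
E2F1 promoter: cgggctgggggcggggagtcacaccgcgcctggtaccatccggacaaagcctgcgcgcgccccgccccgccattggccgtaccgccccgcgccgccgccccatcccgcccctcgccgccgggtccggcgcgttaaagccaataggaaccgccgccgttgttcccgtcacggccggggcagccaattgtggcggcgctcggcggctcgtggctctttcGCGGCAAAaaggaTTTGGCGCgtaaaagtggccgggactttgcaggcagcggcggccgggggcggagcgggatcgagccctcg
The CDK4 promoter lies at chr12:57752261-57752560, also on the minus strand, and capitals mark the E-box that MYC and other basic helix-loop-helix factors can bind.
CDK4 promoter: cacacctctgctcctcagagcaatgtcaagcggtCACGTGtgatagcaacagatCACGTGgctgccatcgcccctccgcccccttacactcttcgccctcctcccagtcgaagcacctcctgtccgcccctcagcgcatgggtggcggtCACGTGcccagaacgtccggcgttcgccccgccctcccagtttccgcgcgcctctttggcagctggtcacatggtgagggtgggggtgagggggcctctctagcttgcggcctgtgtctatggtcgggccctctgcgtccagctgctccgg
The E2F motif was searched on both strands as TTTCCCGC, TTTCGCGC, TTTGCCGC or TTTGGCGC, and E2F1 held 2 matches, 1 at -33 to -26 on the minus strand and 1 at -20 to -13 on the plus strand relative to the start. No other promoter of the group held it, against 3.31% of 35116 human promoters of the same length. The E-box, CACGTG, which reads the same on both strands, was found in 4 of the 13 promoters, of 3 genes (CDK4, CDK6 and CDKN2C), against 7.26% of all promoters. CDK4 held 3, starting at -216, -196 and -101. The GC box, GGGCGG on either strand, was present in 10 of the 13 promoters against 45.0% of all. The kappaB consensus was searched on both strands as GGGRNNYYCC, where R is A or G, Y is C or T and N is any base. It was found in 0 of the 13 against 11.3% of all. These counts describe letters in a fixed window, some starts belong to the same gene, and the windows of 1 gene can share sequence features.

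Levels are given in CPM, the reads of a gene relative to a library total that the authors had scaled within each experiment. Recovered depth was 28606464 to 44658105 reads per library, so that 3 reads were worth 0.0678 to 0.105 CPM and each of the 10 genes stood well above that limit in every library. TEX10 fell from 72.6 ± 2.61 CPM in shNC1 to 31.9 ± 0.619 CPM in TEX10_sh (SD, n = 3 and 3), and RELA fell from 97.2 ± 7.31 CPM in shNC2 to 30.7 ± 1.25 CPM in p65_sh (SD, n = 2 and 2), as the labels say. RELA also fell after TEX10 knockdown, by 0.23 on the log2 scale. Epithelial markers (EPCAM, CDH1, KRT8, KRT18, KRT19) summed to between 3730 and 4556 CPM in every library, whereas the 6 fibroblast, endothelial and immune markers found summed to at most 1.86 CPM, with DCN and CD3E at 0 reads throughout. Differences were tested with limma on log2(CPM + 0.5) over all genes that passed a filter on low counts, with Benjamini-Hochberg adjustment, and a gene is called higher or lower at an adjusted p under 0.01. The spread of each gene is drawn by limma toward that of genes with similar levels. With 2 libraries a side in the RELA experiment, the spread used came mostly from other genes. A smaller p-value there than in the TEX10 experiment is therefore no sign of stronger evidence. In bulk RNA, a change in the share of cells in a cycle phase cannot be told apart from a change in the RNA of each cell.

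After TEX10 knockdown, 6 of the 10 genes rose, all 4 cyclins and both kinases, against a background of 21.6% of 17257 genes tested called higher. CDKN1B was the 1 gene called lower, against 19.0% of genes, and CDKN2C, CDKN2D and E2F1 were not called. The libraries of the groups did not overlap for 8 of the 10, against 58.6% of all genes. After RELA knockdown, 3 genes rose (CCND1, CCNE1 and CDK4), against a background of 14.4% of 16814 genes called higher, and 2 fell (CDK6 and CDKN2D), against 15.8% called lower. The groups did not overlap for 9 of the 10 genes, a property shared by 68.0% of genes with 2 libraries a side. All 10 genes passed the filter in both experiments. Over the 10 genes the median log2 fold change was 0.28 for TEX10 and 0.17 for RELA knockdown, beside 0.0023 and 0.0056 over all genes tested. The 10 genes were chosen with earlier results of these data known. Their counts and medians beside those of all genes are therefore a description and not an independent comparison.

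CCND1 (ENSG00000110092) encodes cyclin D1, the D-type cyclin most used in epithelial tumours. It was the most abundant of the 10. Its level was 567, 590.4 and 557 CPM in the shNC1 libraries and 952, 983 and 963 CPM in the TEX10_sh libraries. In the RELA experiment it was 468 and 469 CPM in shNC2 and 586 and 615 CPM in p65_sh. Every knockdown library lay above every library of its own control. TEX10 knockdown gave a log2 change of 0.76 (SE 0.028, adjusted p = 5.07e-12, limma) and RELA knockdown one of 0.36 (SE 0.043, adjusted p = 3.54e-10). The gene on the other strand, listed as ORAOV1, shares 10.3% of the merged exon bases of CCND1 and was far lower, at 20.9 CPM in shNC1 and 24.0 CPM in TEX10_sh. The counting is not stated to use strand.

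CCND3 (ENSG00000112576), for cyclin D3, moved less than CCND1. It was at 28.2, 28.3 and 27.7 CPM in shNC1 and at 34.1, 33.8 and 36.0 CPM in TEX10_sh, which did not overlap. The log2 fold change was 0.30 (SE 0.043, adjusted p = 2.26e-05, limma). In the RELA experiment the levels were 31.6 and 31.1 CPM in shNC2 and 34.6 and 36.2 CPM in p65_sh. These also did not overlap, but the log2 fold change of 0.17 did not pass (95% interval 0.041 to 0.30, adjusted p = 0.0300, limma).

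CCNE1 (ENSG00000105173) encodes cyclin E1, a partner of CDK2 at the passage from G1 to S phase. Its level was 26.8, 29.8 and 25.3 CPM in shNC1 and 33.1, 32.1 and 33.2 CPM in TEX10_sh. It was 26.5 and 27.8 CPM in shNC2 and 37.3 and 36.4 CPM in p65_sh. In both experiments the knockdown libraries lay above all of their controls. On the log2 scale CCNE1 rose by 0.26 with TEX10 knocked down (SE 0.054, adjusted p = 0.000621, limma) and by 0.43 with RELA knocked down (SE 0.067, adjusted p = 2.64e-07).

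CCNE2 (ENSG00000175305), for cyclin E2, was at 14.5, 17.3 and 12.8 CPM in shNC1, the widest relative spread of any of the 10 genes in any group, and at 20.7, 22.2 and 21.1 CPM in TEX10_sh. All TEX10_sh libraries were higher than all controls, and the log2 fold change was 0.52 (SE 0.082, adjusted p = 5.02e-05, limma). In the RELA experiment it was at 13.5 and 12.9 CPM in shNC2 and at 14.96 and 14.85 CPM in p65_sh. The libraries did not overlap, and the log2 fold change of 0.17 was not called (95% interval -0.0076 to 0.35, adjusted p = 0.122). INTS8, a gene on the other strand, shares 37.0% of the merged exon bases of CCNE2 and was much more abundant, at 127.1 CPM in shNC1 and 126.8 CPM in TEX10_sh. In the RELA experiment INTS8 was at 130.6 CPM in shNC2 and 118.9 CPM in p65_sh (log2 fold change -0.13, not called, adjusted p = 0.0194, limma). The part of INTS8 in the value of CCNE2 was not tested.

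CDK4 (ENSG00000135446) encodes the D-cyclin kinase that was higher by nearly the same amount in both experiments. Its level was 156, 160.1 and 150.0 CPM in shNC1 and 195, 210.0 and 199 CPM in TEX10_sh. It was 159.8 and 158 CPM in shNC2 and 199.8 and 206 CPM in p65_sh. The groups did not overlap in either experiment. CDK4 rose by 0.37 on the log2 scale in the first (SE 0.033, adjusted p = 1.06e-07, limma) and by 0.35 in the second (SE 0.045, adjusted p = 3.96e-09). TSPAN31, on the other strand, shares 43.2% of the merged exon bases of CDK4. It was lower than CDK4 at 17.1 CPM in shNC1 and 20.2 CPM in TEX10_sh, and its log2 fold change was 0.24 (SE 0.065, adjusted p = 0.00557, limma). In the RELA experiment TSPAN31 was at 15.4 CPM in shNC2 and 18.1 CPM in p65_sh. That log2 fold change of 0.23 was not called (adjusted p = 0.0229, limma).

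CDK6 (ENSG00000105810), for the other D-cyclin kinase, was called in opposite directions. It was at 148.1, 148.2 and 146 CPM in shNC1 and at 204, 208 and 204 CPM in TEX10_sh, a rise of 0.47 on the log2 scale (SE 0.027, adjusted p = 5.77e-10, limma). It was at 135 and 139 CPM in shNC2 and at 118 and 112 CPM in p65_sh, with a log2 value of -0.25 (SE 0.048, adjusted p = 2.52e-05). The TEX10_sh libraries all lay above their controls and the p65_sh libraries both lay below theirs.

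CDKN1B (ENSG00000111276), for the CIP/KIP inhibitor p27, was at 34.0, 33.4 and 36.1 CPM in shNC1 and at 29.7, 32.4 and 29.5 CPM in TEX10_sh. The groups did not overlap, but the highest TEX10_sh library was close to the lowest control. The log2 fold change was -0.17 (SE 0.048, adjusted p = 0.00638, limma). The call was lost without shNC1 replicate 1 (adjusted p = 0.0164), shNC1 replicate 3 (0.0241), TEX10_sh replicate 1 (0.0312) or TEX10_sh replicate 3 (0.0370), and without the filter on low counts (0.0194). In the RELA experiment it was at 36.6 and 38.4 CPM in shNC2 and at 39.9 and 40.6 CPM in p65_sh, and the log2 fold change of 0.10 was not called (95% interval -0.023 to 0.23, adjusted p = 0.195).

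CDKN2C (ENSG00000123080), for the INK4 inhibitor p18, was not called in either experiment. It was at 6.22, 7.45 and 6.07 CPM in shNC1 and at 7.03, 5.97 and 7.08 CPM in TEX10_sh. It was at 12.9 and 13.3 CPM in shNC2 and at 12.1 and 12.9 CPM in p65_sh. The groups overlapped both times, with a log2 fold change of 0.024 after TEX10 knockdown (95% interval -0.18 to 0.23, adjusted p = 0.858, limma) and -0.064 after RELA knockdown (95% interval -0.25 to 0.12, adjusted p = 0.620).

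CDKN2D (ENSG00000129355), for the INK4 inhibitor p19, fell after RELA knockdown. It was at 18.5 and 18.6 CPM in shNC2 and at 12.0 and 13.0 CPM in p65_sh, with no overlap and a log2 change of -0.56 (SE 0.087, adjusted p = 3.61e-07, limma). In the TEX10 experiment it was at 8.91, 9.60 and 7.63 CPM in shNC1 and at 7.13, 7.33 and 7.30 CPM in TEX10_sh. All TEX10_sh libraries were below all controls, and the log2 fold change of -0.24 was not called (95% interval -0.42 to -0.063, adjusted p = 0.0241). Without shNC1 replicate 3 it was -0.33 and passed (adjusted p = 0.00306, limma).

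E2F1 (ENSG00000101412), the factor that cyclin-kinase activity sets free, was not called in either experiment. It was at 34.9, 36.8 and 30.4 CPM in shNC1 and at 31.3, 29.1 and 29.8 CPM in TEX10_sh, which overlapped. The log2 fold change was -0.17 (95% interval -0.30 to -0.047, adjusted p = 0.0222, limma). Without shNC1 replicate 3 it was -0.25 and passed (adjusted p = 0.000207), and with library totals as the scaling it was -0.20 and passed (adjusted p = 0.0054). In the RELA experiment it was at 28.9 and 30.1 CPM in shNC2 and at 32.5 and 35.2 CPM in p65_sh, which did not overlap. That log2 fold change was 0.19 (95% interval 0.058 to 0.33, adjusted p = 0.0178, limma), and without p65_sh replicate 1 it was 0.25 and passed (adjusted p = 0.0077).

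The control libraries of the TEX10 experiment were not alike, and this was not limited to these genes. Over all genes with enough reads, shNC1 replicates 2 and 3 differed most of any pair within a group. Their chi-square per degree of freedom was 4.43, against at most 3.32 for the other pairs. shNC1 replicate 3 was the lowest of its group for 9 of the 10 genes, CDKN1B being the exception, and replicate 2 was the highest for the same 9. Relative to the group mean, on the log2 scale, replicate 2 was 0.23 higher and replicate 3 was -0.20 for CCNE2, and the values for E2F1 were 0.11 and -0.16. For CDK6 they were 0.0064 and -0.011. Among 20 E2F target genes, which encode replication and nucleotide synthesis proteins, replicate 2 was above the group mean in 20 and replicate 3 in 0, with median deviations of 0.12 and -0.12. How many of all genes had the replicates in this order was not counted. The part of this spread in the results on E2F1, CDKN2D, CDKN1B and the E-type cyclins was not tested beyond the values without each library. All 6 genes called higher after TEX10 knockdown were called in each of the 6 fits that left out 1 library.

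**Figure D1:**
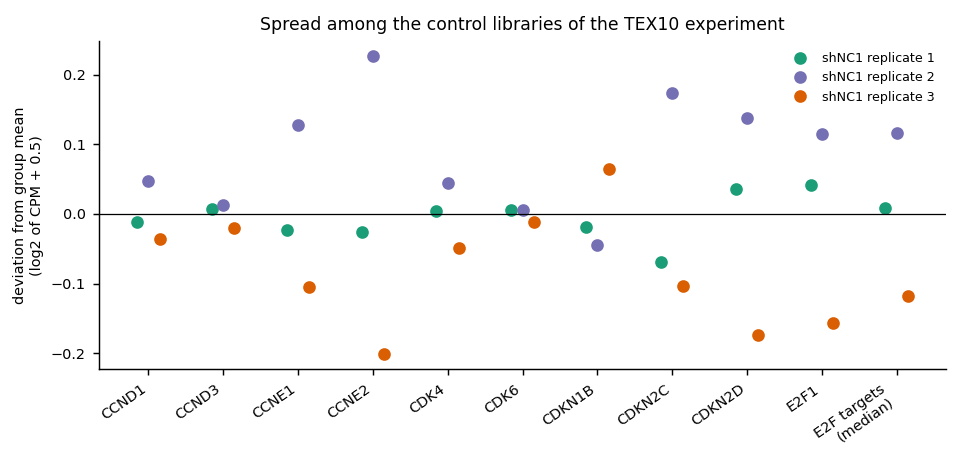
The deviation of each shNC1 library from the group mean, on the log2 scale of CPM + 0.5, is plotted for each of the 10 genes and for the median of 20 E2F target genes. Replicate 2 lies above and replicate 3 below the mean in all columns except CDKN1B, most widely at CCNE2.

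Whether the 2 knockdowns differed was tested directly, as the TEX10 effect minus the RELA effect over all 10 libraries. The knockdowns were made in separate experiments that share no library, so this test cannot tell the target from the experiment. The difference was called for 4 of the 10 genes, 2 higher and 2 lower, against a background of 11.5% higher and 8.49% lower among 17922 genes tested. CDK6 had the largest, 0.72 on the log2 scale (SE 0.048, adjusted p = 7.17e-10, limma), and CCND1 followed at 0.40 (SE 0.047, adjusted p = 2.01e-06). Both were called under every alternative tried. E2F1 differed by -0.36 (SE 0.093, adjusted p = 0.00510) and CDKN1B by -0.27 (SE 0.075, adjusted p = 0.00815), both lower after TEX10 than after RELA knockdown relative to the controls. The E2F1 call was lost without any 1 of shNC1 replicates 1 and 2, TEX10_sh replicates 2 and 3, shNC2 replicates 1 and 2 and p65_sh replicate 2, and without the filter on low counts, and the adjusted p over all its alternatives ran from 0.000166 to 0.0387. The CDKN1B call was lost without any 1 library other than shNC1 replicate 2 and TEX10_sh replicate 2, with edgeR (0.0118) or DESeq2 (0.0171) and without the filter on low counts (0.0257), and its adjusted p ran from 0.00350 to 0.0484. The number of genes called fell to 2 without any 1 of shNC1 replicate 1, TEX10_sh replicate 3, both shNC2 libraries in turn, and p65_sh replicate 2.

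The other 6 genes were not called in this test. CDK4 had the narrowest interval, a difference of 0.024 (95% interval -0.086 to 0.13, adjusted p = 0.778, limma). CCNE2 differed by 0.35 (95% interval 0.089 to 0.61, adjusted p = 0.0391), and without shNC1 replicate 2 by 0.46 (adjusted p = 0.00170). CDKN2D differed by 0.31 (95% interval 0.058 to 0.57, adjusted p = 0.0594). CCNE1, which rose in both experiments, differed by -0.17 (95% interval -0.35 to 0.0026, adjusted p = 0.132), CCND3 by 0.13 (-0.019 to 0.27, adjusted p = 0.185) and CDKN2C by 0.088 (-0.20 to 0.38, adjusted p = 0.682).

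Levels of different genes were compared per kilobase of merged exons (GENCODE v29 on GRCh38, matched by identifier). The submitters' notes name hg19 for the counting, so these lengths may differ from those of the exons counted. CCND1 was first and CDK4 second in all 4 groups, at 118 and 49.0 CPM per kb in shNC1 and 124 and 64.1 in p65_sh. In shNC1, E2F1 (13.6), CDKN1B (12.3), CDK6 (12.0) and CCNE1 (10.7) came next, and the libraries of E2F1 overlapped with those of CDKN1B and those of CDKN1B with those of CDK6. CDKN2D (5.80), CCND3 (4.84), CCNE2 (3.38) and CDKN2C (1.98) were lowest, with no overlap between neighbours in that order. The order below the first 2 genes depends on the length used. The longest transcript of CCND3 is 2394 bases against 5802 bases of merged exons. With the longest transcript as the length, CCND3 was at 11.7 in shNC1, above CDKN2D at 6.13. CCNE1 (13.4) then stood above CDKN1B (13.0) and CDK6 (12.7). CDK4 exceeded CDK6 by 4.07-fold per kb in shNC1 and 3.801-fold in TEX10_sh, and by 4.49-fold in shNC2 and 6.81-fold in p65_sh. With the longest transcript as the length the values were 5.89-fold, 5.49-fold, 6.50-fold and 9.85-fold in the same order. CCND1 exceeded CCND3 by 24.4-fold in shNC1 and 33.5-fold in TEX10_sh, or by 11.3-fold and 15.5-fold with the longest transcript as the length.

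The rest of the G1 machinery was described with 5 lists of 52 genes, of which 51 were tested. These lists were also chosen with earlier results of these data known. After TEX10 knockdown 13 were lower and 12 higher, with a median log2 fold change of -0.035, and after RELA knockdown 10 were lower and 10 higher, with a median of -0.031. The shares called over all genes were 19.0% lower and 21.6% higher in the TEX10 experiment and 15.8% lower and 14.4% higher in the RELA experiment, and the counts of the 51 were near them. The RELA count of 10 lower genes fell to 4 without shNC2 replicate 1, to 6 without shNC2 replicate 2 and to 6 without p65_sh replicate 1. CCND2, for cyclin D2, had 0 to 6 reads in any library and was not tested.

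Among the 7 tested partners and activators of the kinases, 2 fell and 3 rose after TEX10 knockdown, beside 19.0% and 21.6% of all genes. CDC37, a chaperone partner that loads kinases including CDK4 onto HSP90, rose from 289 ± 11.5 to 363 ± 11.4 CPM (log2 fold change 0.33, adjusted p = 3.26e-07, limma). CDC25A, a phosphatase that activates CDK2, rose from 25.6 ± 5.58 to 35.9 ± 0.993 CPM (0.51, adjusted p = 0.000636), a call lost with DESeq2 (adjusted p = 0.0201). CCNA2, for the S-phase cyclin A2, fell from 79.4 ± 9.76 to 61.9 ± 0.381 CPM (-0.35, adjusted p = 0.000109). After RELA knockdown 2 of the 7 fell and 1 rose, beside 15.8% and 14.4% of all genes. CDC25A rose from 27.4 ± 1.61 to 37.3 ± 0.103 CPM (0.44, adjusted p = 2.30e-07, limma). CCNA2 (-0.24) and CDK7 (-0.23), the kinase that activates other CDKs, fell, and both calls were lost without shNC2 replicate 1 (adjusted p = 0.0153 and 0.101).

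Of the 4 other inhibitor genes, 1 rose and 1 fell in each experiment, beside 21.6% higher and 19.0% lower over all genes for TEX10 and 14.4% and 15.8% for RELA knockdown. CDKN1A, for the p53-induced inhibitor p21, rose from 230.3 ± 4.14 to 785 ± 28.98 CPM after TEX10 knockdown (log2 fold change 1.77, SE 0.030, adjusted p = 4.82e-16, limma) and from 275 ± 3.24 to 359 ± 9.94 CPM after RELA knockdown (0.38, SE 0.043, adjusted p = 7.80e-11). Per kilobase, CDKN1A stood 6.15-fold above CDKN1B in shNC1 and 23.7-fold above it in TEX10_sh, or 7.82-fold and 30.1-fold with the longest transcript. CDKN1C, for the inhibitor p57, fell from 14.6 ± 0.701 to 6.62 ± 0.469 CPM after TEX10 knockdown (-1.09, adjusted p = 4.15e-09) and from 20.3 ± 1.60 to 10.8 ± 0.386 CPM after RELA knockdown (-0.88, adjusted p = 2.03e-12). CDKN2A, whose count joins the transcripts for p16 and ARF, and CDKN2B, for p15, were not called, with log2 fold changes of -0.13 (adjusted p = 0.0336) and 0.22 (adjusted p = 0.0211) after TEX10 knockdown and 0.052 and -0.054 after RELA knockdown.

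Of the 12 genes for pocket proteins and E2F/DP factors, 1 fell and 4 rose in each experiment, where 19.0% and 21.6% of all genes did so after TEX10 knockdown and 15.8% and 14.4% after RELA knockdown. After TEX10 knockdown RBL2, for the pocket protein p130, fell from 70.5 ± 3.94 to 52.4 ± 2.66 CPM (log2 fold change -0.42, adjusted p = 8.00e-07, limma). RB1, for the retinoblastoma protein, rose from 64.3 ± 0.529 to 76.9 ± 1.23 CPM (0.26, adjusted p = 5.05e-06), and TFDP2, for a dimer partner of E2F, rose by 0.25 (adjusted p = 9.97e-06). After RELA knockdown the 3 with the smallest p were all E2F genes. E2F3 rose from 49.6 ± 0.825 to 73.5 ± 0.431 CPM (0.56, adjusted p = 7.36e-13, limma), E2F6 by 0.29 and E2F4 by 0.24. The E2F4 call was lost without shNC2 replicate 1, where the log2 fold change was 0.20. RB1 and RBL2 were at -0.055 and -0.059 after RELA knockdown and not called. E2F3 and E2F4 were also called higher after TEX10 knockdown, by 0.20 (adjusted p = 0.000189, limma) and 0.22 (adjusted p = 3.41e-05). E2F6 was at 0.13 after TEX10 knockdown and not called (adjusted p = 0.0109). The difference between the knockdowns was called for E2F3 (-0.36, adjusted p = 7.21e-05). It was not called for E2F4 (-0.018, adjusted p = 0.853) or E2F6 (-0.17, adjusted p = 0.0534).

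Of the 8 ubiquitin ligase genes that act on G1 regulators, 1 fell and 3 rose after TEX10 knockdown, beside 19.0% and 21.6% of all genes, and 2 fell and 0 rose after RELA knockdown, beside 15.8% and 14.4%. FBXW7, whose product targets cyclin E, rose from 29.3 ± 1.17 to 46.3 ± 1.53 CPM after TEX10 knockdown (log2 fold change 0.65, adjusted p = 3.91e-09, limma) and was at -0.031 after RELA knockdown, a difference of 0.68 that was called (adjusted p = 3.31e-07). AMBRA1, whose product targets D-type cyclins, rose by 0.32 after TEX10 knockdown (adjusted p = 9.05e-06). CKS1B, a cofactor in the degradation of p27, fell by 0.36 after TEX10 knockdown (adjusted p = 1.10e-07) and by 0.18 after RELA knockdown (adjusted p = 0.00241), the second call being lost without shNC2 replicate 1 (0.0976), shNC2 replicate 2 (0.0112) or p65_sh replicate 1 (0.0276). FBXO4, at 4.18 and 2.72 CPM in shNC2 and p65_sh, fell by 0.54 (adjusted p = 0.00233), a call lost without shNC2 replicate 1 (0.0305) or p65_sh replicate 1 (0.0295). SKP1 was at 0.13 after RELA knockdown and not called (adjusted p = 0.0155), and passed without p65_sh replicate 2 (0.00558).

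Of the 20 E2F target genes, 8 fell and 1 rose after TEX10 knockdown, with a median log2 fold change of -0.064, and 4 fell and 4 rose after RELA knockdown, with a median of -0.067. Over all genes 19.0% fell and 21.6% rose in the first case and 15.8% and 14.4% in the second, so that the counts after RELA knockdown were near the share of all genes. TK1, for thymidine kinase, fell from 217 ± 11.6 to 158 ± 1.44 CPM after TEX10 knockdown (-0.46, adjusted p = 1.57e-08, limma), CDT1, a replication licensing factor, by 0.32, and RRM1, a subunit of ribonucleotide reductase, by 0.24. After RELA knockdown RRM1 fell by 0.34 (adjusted p = 1.92e-08) and CDC6, another licensing factor, by 0.35 (adjusted p = 9.77e-08), while UHRF1, which maintains DNA methylation, rose by 0.31 (adjusted p = 2.76e-07). TK1 was lower after RELA knockdown as well (-0.21, adjusted p = 0.000163, limma). That call was lost without the filter on low counts (adjusted p = 0.0282) and with DESeq2 (0.0568). It also depended on single libraries. The log2 fold change was -0.18 without shNC2 replicate 2 and -0.12 without p65_sh replicate 1, and ran from -0.31 to -0.12 over all alternatives. In this list shNC1 replicates 2 and 3 lay apart, and the other lists were not compared in this way. The 8 lower genes after TEX10 knockdown became 6 without replicate 2 and 12 without replicate 3, while the 1 higher gene became 3 without replicate 2. Leaving out libraries for this list was chosen after seeing the data.

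**Figure D2:**
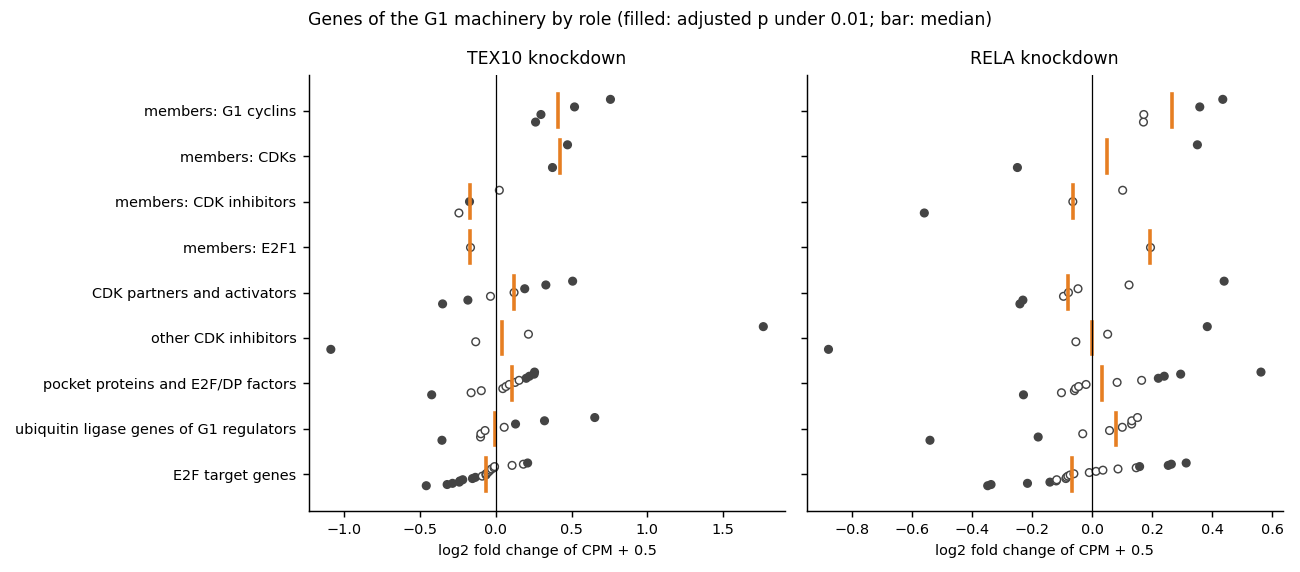
The log2 fold change of CPM + 0.5 of each tested gene is plotted by role for TEX10 knockdown (left) and RELA knockdown (right), with filled points for an adjusted p under 0.01 and an orange bar for the median of the role. The 4 cyclins and 2 kinases all lie to the right of 0 after TEX10 knockdown, and the E2F target genes spread on both sides of 0 with medians of -0.064 and -0.067.

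For each of the 10 genes, the other gene with the most similar pattern was found by the correlation of log2(CPM + 0.5), centred within each experiment, over the 10 libraries and 11531 candidate genes. The best match was TERF2IP for CCND1 (r = 0.998), DDX31 for CCND3 (0.997), PABPN1 for CDK4 (0.995) and EIF2B2 for CDK6 (0.994). It was UTP3 for CCNE2 (0.987), RPL37 for CCNE1 (0.986), FASN for CDKN2D (0.986), AGTRAP for E2F1 (0.976), KNDC1 for CDKN1B (0.963) and RWDD3 for CDKN2C (0.919). Among the 10 genes themselves, CCND1 correlated most with CCND3 (r = 0.978) and CDK4 (0.954) and less with CDK6 (0.707). The 10 points are 4 groups of libraries that share scaling within an experiment, so these values describe the pattern of groups more than of single libraries.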

How the data were processed

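RNA of HCT116 cells was sequenced in 10 libraries. The authors deposited CPM per gene in 1 file per library, and the submitters' processing notes name STAR 2.4.2a, RSEM 1.2.29, edgeR 3.8.5 and hg19. Every deposited CPM value was a whole multiple of 1 library constant (100% within 0.01 of a read), so whole reads were recovered (totals of 28606464 to 44658105 per library) and used for filtering and for count tests. The scaling factors of each experiment had a geometric mean of 1, so the experiments were scaled separately. The main test was limma 3.58.1 (R 4.3.3) with an intensity trend on log2(CPM + 0.5). Genes were kept by edgeR's filter on recovered reads (minimum count 10, total 15), and adjusted over all genes kept. A fold change on this scale understates the change of low genes. TEX10_sh was tested against shNC1 and p65_sh against shNC2, and the difference between knockdowns was a contrast over all 4 groups. Alternatives were edgeR 4.0.16 and DESeq2 1.42.0 on recovered reads, other pseudocounts, scalings, filters and thresholds, a replicate block and leaving out each library.

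The 10 genes and all lists were chosen with earlier results of these data known. The genes named besides the 10 were the 2 targets, the 3 of each list with the smallest adjusted p per comparison, genes not tested, CDKN1A and CDKN1C, the best match of each of the 10 by correlation, and genes overlapping the exons of CCND1, CCNE2 and CDK4, the last added after the values were seen. RBL1 and CKS1B had 2 identifiers, and the one with most reads was used. PECAM1 was not matched. The statistics were tested on simulated data.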

Additional observations from a re-analysis of the deposited data

Results flagged for a closer look

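The effect of the knockdowns differed by a direct test for 4 of the 10 genes. That test cannot tell the target from the experiment. The TEX10 effect minus the RELA effect was 0.40 for CCND1 and 0.72 for CDK6 on the log2 scale (adjusted p = 2.01e-06 and 7.17e-10, limma). It was -0.27 for CDKN1B and -0.36 for E2F1 (adjusted p = 0.00815 and 0.00510), and these 2 passed in 6 and 10 of the 18 alternatives at the same threshold. CCND1 was higher in every knockdown library of both experiments, and CDK6 was higher in 3 of 3 TEX10_sh libraries and lower in 2 of 2 p65_sh libraries than all of their controls. No group had the 4 libraries needed to test for a library far from the others.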

How the results depend on the processing

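No value for the 10 genes that was called, here or under an alternative, changed direction. The 1 gene lower after TEX10 knockdown became 0 without the filter on low counts, 2 with library totals and 3 at a threshold of 0.05, and ran from 0 to 2 when 1 library was left out. The 3 genes higher after RELA knockdown became 5 at a threshold of 0.05. The 10 pathway genes lower after RELA knockdown became 4 without the filter and 6 with DESeq2, and ran from 4 to 8 when 1 library was left out. The 4 genes whose effect differed between the knockdowns became 2 without the filter, and ran from 2 to 4 when 1 library was left out. Without the filter, more genes are tested and adjusted over. The cause of the other changes was not tested. Of the other genes named, CDC25A after TEX10 knockdown and CDK7, FBXO4 and TK1 after RELA knockdown lost their calls both without the filter and with DESeq2. CKS1B after RELA knockdown lost its call without the filter. Over all genes, the RELA calls fell from 2655 lower and 2428 higher to 1727 and 1396 without the filter and to 1781 and 1408 with DESeq2, and the lower calls of the difference test fell from 1522 to 959 without the filter. Without shNC2 replicate 2 the RELA calls fell to 1605 higher.

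The groups share replicate numbers, but same-numbered libraries did not deviate together (correlations of 0.022, 0.038 and -0.021 in the TEX10 experiment and 0.027 in the RELA experiment). The labels do not say whether same-numbered libraries were prepared together, and these correlations cannot decide it. With a replicate block, TEX10 knockdown lowered 0 of the 10 genes (CDKN1B adjusted p = 0.0108), and 5 were higher after RELA knockdown, with CCND3 (0.00742) and E2F1 (0.00344) added. The block also ended the call of the CDKN1B difference between the knockdowns (adjusted p = 0.0114). Over all genes it called 3140 lower and 3590 higher in the TEX10 experiment, and 3144 and 2964 in the RELA experiment.

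With 2 libraries per group in the RELA experiment, leaving 1 out leaves a lone library assumed to vary like the others. The longest transcript as length moved 35 of 40 levels per kilobase by more than the SD, always upward. Strand is not stated for the counting, which limits CDK4 and CCNE2 most.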

Other observations

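Levels of CDKN2C and CDKN2D lay apart between the control cells of the experiments, whose values were scaled separately, and the experiments cannot be told apart from any batch. CDKN2C was at 6.58 ± 0.759 CPM in shNC1 (SD, n = 3) and 13.1 ± 0.335 CPM in shNC2 (SD, n = 2). CDKN2D was at 8.71 ± 0.996 CPM in shNC1 and 18.6 ± 0.0730 CPM in shNC2. The other INK4 genes were closer, with CDKN2A at 25.5 ± 0.850 and 23.7 ± 0.389 CPM and CDKN2B at 9.17 ± 0.420 and 11.7 ± 0.299 CPM. The CIP/KIP inhibitor CDKN1B was at 34.5 ± 1.39 and 37.5 ± 1.25 CPM, CDK4 was at 155 ± 5.03 and 159.1 ± 0.928 CPM, and CCND1 was at 572 ± 17.0 and 468 ± 0.973 CPM. After RELA knockdown CDKN2D, at 12.5 ± 0.707 CPM, was still above every library of the TEX10 experiment. This was noticed after the values were seen and was not tested.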
